A study of Mus musculus with 6 samples.

Results

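Imprinted genes are transcribed mainly from the copy inherited from one parent. They lie in clusters in which a differentially methylated control region sets which parental copy is used for several neighbouring genes, and many of them act on growth before and shortly after birth. The genes described here were chosen by symbol from a list of 36 imprinted genes with a known cluster and expressed allele, and by a mean normalized count of at least 20 over the 6 libraries. Of the 47729 genes in the table, 33 met this rule. They fall into 18 clusters, 8 of which contributed more than 1 gene. By what is known of them, 20 are expressed from the paternal copy, 10 from the maternal copy, and for 3 (*Grb10*, *Gnas* and *Inpp5f*) the allele depends on the tissue or the transcript.

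The libraries came from the proximal tibial epiphysis of 14-day-old mice, 3 of the Control line (ICR stock) and 3 of LS1 (Longshanks 1), a line selected for long tibiae relative to body mass. Each library was 1 mouse, with both epiphyses pooled, and the piece held cartilage, bone and marrow. Neither group carried an engineered allele or received an agent. LS1 is a single selected line, so selection and drift in that line cannot be told apart, and the mouse-to-mouse spread within a line is what the tests below measure. Reads were not assigned to parental alleles, so every value is the sum of both copies. In such bulk tissue more cells of a type and more RNA per cell cannot be told apart.

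Libraries held 68803249 to 88745366 reads, and the shallowest LS1 library was deeper than the deepest Control library. Values are normalized counts, that is, reads divided by 1 size factor per library. Genes of cartilage, bone and red cells were all high. *Col2a1* had a mean of 1620810 normalized counts, *Col1a2* of 3072720 and *Hbb-bs* of 882945, so cartilage was not the only large source of RNA. LS1 replicate 3 stood apart from the other LS1 libraries on the first principal component (−4.29 against 43.7 and 50.1, with Control between −41.5 and −22.1). Control replicates 1 and 2 and LS1 replicate 2 had high *Xist*, whereas Control replicate 3 and LS1 replicates 1 and 3 expressed the Y-linked gene *Ddx3y*, so the sexes were not balanced between the groups.

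The imprinted genes were on balance higher in LS1. The list of 36 was drawn up with earlier results of these data known, so the direction of its genes is a description and not independent evidence. Of the 33, 31 had a higher mean on log2(normalized count + 1) in LS1, where 50.7% of all 19308 genes tested did, and the median difference was 0.35 against 0.0054 over all genes. No single gene passed the test: limma called 0 of 33 at an adjusted p under 0.05 (background 0.0725% of all genes), and so did the quasi-likelihood test of edgeR (background 0.0673%). At an unadjusted p under 0.05 in limma there were 10 of 33, all higher in LS1, where 7.08% of all genes were past that level and higher and 12.9% were past it in either direction. The 10 were *Igf2*, *H19*, *Dlk1*, *Mest*, *Ndn*, *Zim1*, *Usp29*, *Impact*, *Slc38a4* and *Rian*. In 7 genes every LS1 library lay above every Control library (background 10.3%), and in 0 every LS1 library lay below (background 8.94%). The 7 were *Igf2*, *H19*, *Dlk1*, *Mest*, *Usp29*, *Ndn* and *Impact*. DESeq2, run on the recovered reads, called 5 of 33, all higher in LS1 (*Igf2*, *H19*, *Dlk1*, *Mest* and *Zim1*), with 2.38% of all genes called. Without LS1 replicate 3, limma called 4 (*Igf2*, *H19*, *Dlk1* and *Zim1*, background 1.68%). Leaving out any other single library, limma called 0 of 33, with 5 to 46 of all genes called.

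**Figure D1:**
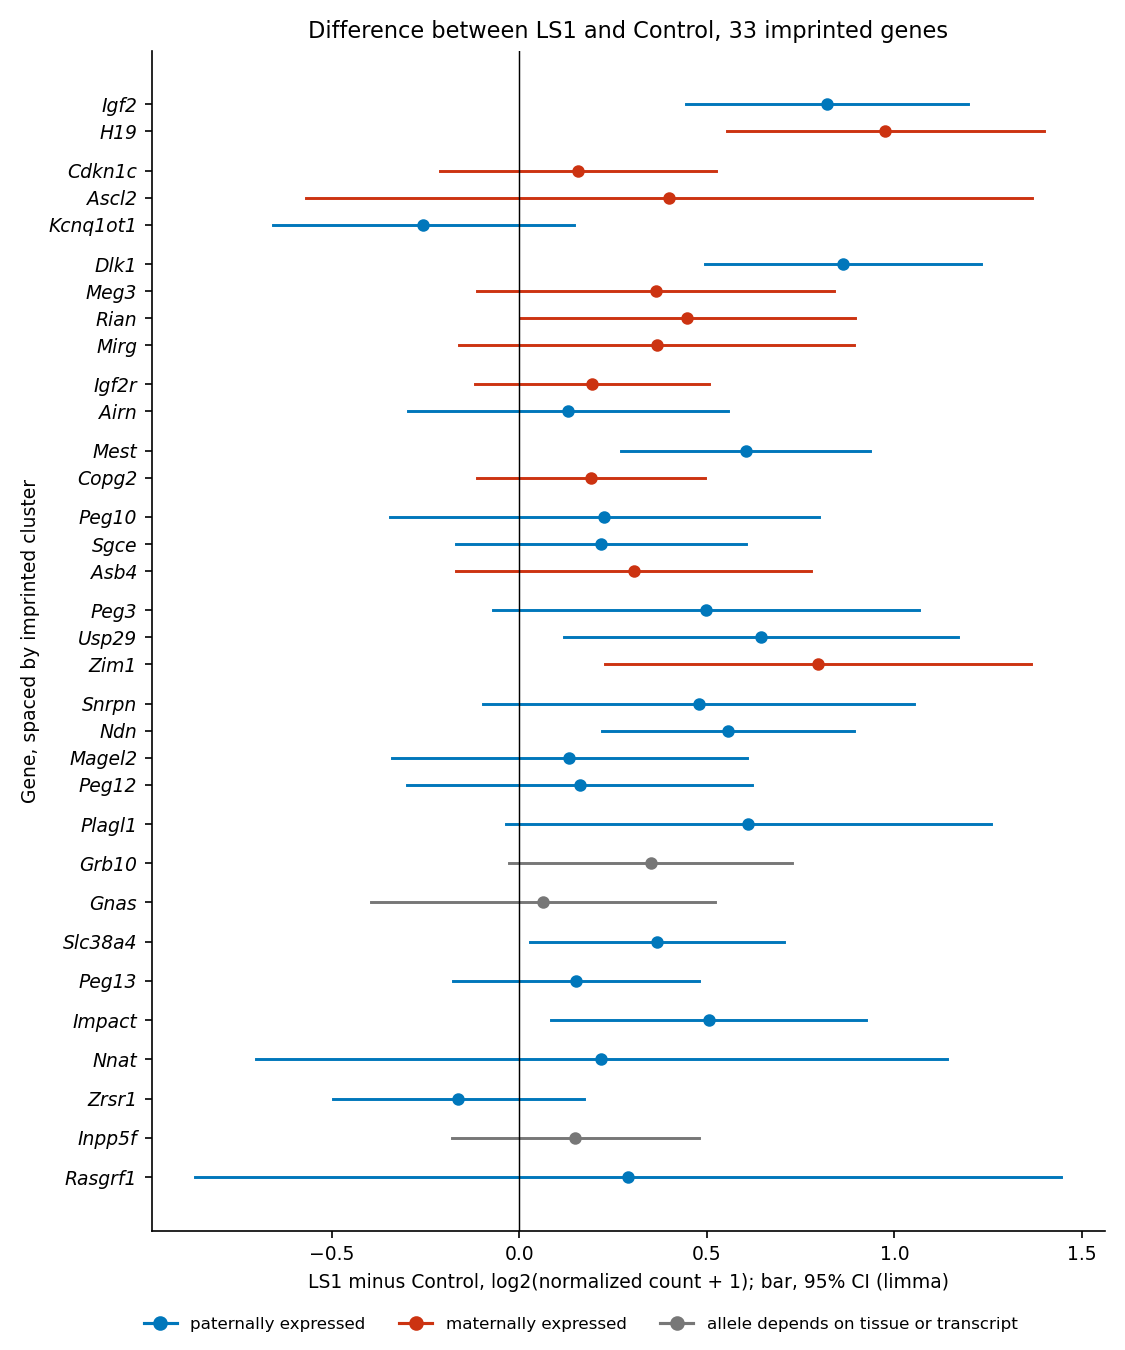
The horizontal axis is the difference between LS1 and Control on log2(normalized count + 1), with points for the limma estimate and bars for the 95% confidence interval, and each row is a gene, spaced by imprinted cluster and coloured by the expressed allele. All but 2 of the 33 points (*Kcnq1ot1* and *Zrsr1*) lie right of 0, and most intervals include 0.

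The level of the genes spanned several orders. Per length, as TPM computed here (recovered reads per exonic length, scaled to the same sum in each library), *H19* was the highest, at 1496 ± 183 in Control and 3106 ± 980.4 in LS1 (SD, n = 3 each). *Igf2* (345 ± 32.7) and *Cdkn1c* (296 ± 44.3) followed in Control with overlapping SDs, and then *Peg3* (103 ± 33.4) and *Grb10* (94.4 ± 18.3), which did not differ beyond their spread. *Mest*, *Igf2r*, *Copg2* and *Plagl1* came next, between 56.5 and 34.7 in Control. In reads, *H19*, *Igf2*, *Peg3* and *Grb10* together made up 75.7% of all reads of the 33 genes. All 33 together made up 0.307% to 0.365% of a Control library and 0.450% to 0.652% of an LS1 library. The coefficient of variation between the 3 libraries of a group had a median of 13.9% over the genes in Control and 20.2% in LS1. Among Control libraries *Mest* was the steadiest (2.79%) and *Rasgrf1* the most variable (52.8%). In LS1 the extremes were *Dlk1* (4.02%) and *Nnat* (56.7%).

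The *Igf2*-*H19* cluster on chromosome 7 held the most abundant genes and some of the largest differences. *Igf2*, the insulin-like growth factor that drives fetal growth (chr7:142650766-142666816, minus strand in GRCm38), is expressed from the paternal copy. Its normalized counts were 43490.2, 49416 and 49949 in Control and 90467, 101289 and 64554 in LS1. The lowest LS1 library, replicate 3, still exceeded the highest Control library. On the log2 scale the difference was 0.82 (SE 0.17), with an adjusted p of 0.142 in limma and 0.00173 in DESeq2. *H19*, a noncoding RNA made from the maternal copy, uses the same enhancers as *Igf2* (chr7:142575529-142578143, minus strand). It was at 102569, 80892 and 83143 in Control and 148151, 237114 and 149451 in LS1. The groups did not overlap, and LS1 replicate 2 was well above the other LS1 libraries. The difference was 0.98 (SE 0.19), with an adjusted p of 0.125 in limma and 0.000529 in DESeq2. Within LS1, replicate 3 was the lowest for *Igf2* by a wide margin, whereas for *H19* it was level with replicate 1.

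Within 7 of the genes lie microRNAs on the same strand, 23 hairpins in the RefSeq table, 14 of them in *Mirg*. They were matched to the whole gene, introns included, so the spliced transcript need not contain them. Mature microRNAs were not measured, since the libraries were made from polyadenylated RNA, and only the host transcripts have values. For *H19*, *Igf2* and *Mest*, the hosts that DESeq2 called, the mature sequences are shown to identify what lies within those genes. The seed (bases 2 to 8) is in capitals, and the sequences are from RefSeq on GRCm38.p6. The 6 seeds differ from each other.
miR-675-5p, chr7:142577112-142577133, minus strand: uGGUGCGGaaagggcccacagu (in *H19*)
miR-675-3p, chr7:142577078-142577099, minus strand: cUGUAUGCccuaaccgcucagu (in *H19*)
miR-483-5p, chr7:142654968-142654989, minus strand: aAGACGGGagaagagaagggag (in *Igf2*)
miR-483-3p, chr7:142654932-142654952, minus strand: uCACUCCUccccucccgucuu (in *Igf2*)
miR-335-5p, chr6:30741314-30741336, plus strand: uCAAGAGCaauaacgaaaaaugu (in *Mest*)
miR-335-3p, chr6:30741354-30741375, plus strand: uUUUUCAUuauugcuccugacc (in *Mest*)

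On chromosome 12, *Dlk1* and the maternally expressed noncoding RNAs beside it all had higher means in LS1. *Dlk1*, a transmembrane protein related to the Notch ligands and known from preadipocytes, is paternally expressed (chr12:109452823-109463336, plus strand). It was at 819, 966 and 736 in Control and 1507, 1586 and 1466 in LS1. All LS1 libraries lay within a narrow range above the Control libraries. The difference was 0.86 (SE 0.17), the second in size among the 33 after *H19*, with an adjusted p of 0.12 in limma and 0.000468 in DESeq2. *Meg3*, a maternally expressed noncoding RNA, lies between *Dlk1* and *Rian*. It was at 4037, 5555 and 3348 in Control and 5522, 6898 and 4196 in LS1, and the groups overlapped. Its difference was 0.36 (SE 0.22), with a 95% confidence interval of −0.11 to 0.84. *Rian*, which hosts small nucleolar RNAs, was at 4055, 5147 and 3068 in Control and 6518, 5704 and 4372 in LS1, a difference of 0.45 (SE 0.20) with an unadjusted p of 0.0493 in limma. *Mirg*, the microRNA host, was at 243, 364 and 257 in Control and 365, 427 and 312 in LS1, a difference of 0.37 (SE 0.24) with the interval −0.16 to 0.89.

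*Mest*, a protein of the alpha/beta hydrolase fold that is transcribed from the paternal copy (chr6:30723547-30748465, plus strand), was at 5280.0, 5541 and 5284 in Control and 10007, 6871 and 7879 in LS1. The Control libraries differed little and all LS1 libraries were above them. The difference was 0.60 (SE 0.15), with an adjusted p of 0.198 in limma and 0.0284 in DESeq2. *Copg2*, a subunit of the COPI vesicle coat whose 3′ end overlaps that of *Mest* on the other strand, was at 4581, 4638 and 3838 in Control and 5422, 5003 and 4482 in LS1, a difference of 0.19 (SE 0.14). How the counting treated strand was not stated, so reads in overlapping stretches of such pairs cannot be assigned with certainty.

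The *Peg3* domain on chromosome 7 had larger values in LS1 for all its 3 genes. *Peg3*, a zinc finger protein of the paternal copy, was at 33386, 42096 and 23399 in Control and 59806, 46869 and 33013 in LS1, and the groups overlapped because LS1 replicate 3 was below Control replicates 1 and 2. Its difference was 0.50 (SE 0.25). *Usp29*, a ubiquitin-specific protease gene that starts 147 bases from *Peg3* on the other strand, was at 379, 335 and 271 in Control and 665, 476 and 416 in LS1. Here every LS1 library was above every Control library, and the difference was 0.64 (SE 0.24) with an unadjusted p of 0.0207 and an adjusted p of 0.31 in limma. *Zim1*, a zinc finger gene of the maternal copy, was at 3409, 4436 and 2881 in Control and 8265, 6713 and 4109 in LS1. LS1 replicate 3 fell among the Control values, and the difference was 0.80 (SE 0.25), with an adjusted p of 0.272 in limma and 0.041 in DESeq2. Without that library the difference of *Zim1* was 1.08 and that of *Peg3* 0.72. Without LS1 replicate 1 they were 0.58 and 0.30, and without Control replicate 3 that of *Peg3* was 0.27.

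The stretches upstream of the annotated starts of the 4 DESeq2-called genes that have an entry in the RefSeq promoter table (GRCm38.p6), and the stretch between the divergent starts of *Peg3* and *Usp29*, are shown because imprinting acts through CpG methylation, in part at such starts. CpG dinucleotides are in capitals. For *Igf2* and *Mest*, which have several starts, the window with most CpGs is given (the first where windows tied).
Igf2, chr7:142658805-142659054, minus strand: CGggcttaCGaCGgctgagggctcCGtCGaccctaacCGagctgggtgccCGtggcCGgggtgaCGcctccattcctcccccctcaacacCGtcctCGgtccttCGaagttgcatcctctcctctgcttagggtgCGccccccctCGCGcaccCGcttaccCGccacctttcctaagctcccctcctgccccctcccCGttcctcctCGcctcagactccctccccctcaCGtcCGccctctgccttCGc
Dlk1, chr12:109452573-109452822, plus strand: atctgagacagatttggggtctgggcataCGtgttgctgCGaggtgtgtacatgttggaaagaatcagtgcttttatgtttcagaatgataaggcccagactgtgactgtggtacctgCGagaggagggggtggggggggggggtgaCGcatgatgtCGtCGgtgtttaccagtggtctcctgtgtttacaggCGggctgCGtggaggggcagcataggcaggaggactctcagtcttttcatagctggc
Mest, chr6:30737800-30738049, plus strand: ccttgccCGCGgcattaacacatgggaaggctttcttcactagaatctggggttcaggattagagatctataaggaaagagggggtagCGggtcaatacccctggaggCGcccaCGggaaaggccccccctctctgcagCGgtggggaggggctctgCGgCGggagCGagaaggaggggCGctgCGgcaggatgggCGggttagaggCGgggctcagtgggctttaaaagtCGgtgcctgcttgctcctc
Zim1, chr7:6696433-6696682, minus strand: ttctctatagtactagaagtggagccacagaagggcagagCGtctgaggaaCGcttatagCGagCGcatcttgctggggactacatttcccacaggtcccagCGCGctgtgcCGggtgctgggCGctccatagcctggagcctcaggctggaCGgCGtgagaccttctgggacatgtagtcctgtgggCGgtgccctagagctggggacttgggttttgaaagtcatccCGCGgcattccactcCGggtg
Peg3 to Usp29, chr7:6730420-6730582, plus strand: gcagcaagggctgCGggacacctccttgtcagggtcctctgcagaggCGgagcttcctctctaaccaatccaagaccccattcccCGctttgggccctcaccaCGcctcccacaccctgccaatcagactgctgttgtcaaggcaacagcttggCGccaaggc
These stretches hold 22, 8, 14, 14 and 5 CpGs in the order given. In the table, 27 of the 33 genes have at least 1 window of 300 bases (250 before and 50 after the start). Taking the richest window of each gene, the median was 13 CpGs for the imprinted genes, from 0 in *Rian* to 45 in *Grb10*, 8 over all 27025 genes in the table and 20 over the 12407 tested genes that have a window. The hexamer TGCCGC, the core that the imprint-protecting zinc finger protein ZFP57 recognizes when methylated, was searched on both strands. It was found in the windows of 9 of the 27 imprinted genes (33.3%), against 20.7% of the tested genes and 13.1% of all genes. A gene counted if any of its windows held the hexamer. The 27 imprinted genes have 43 windows and the 12407 tested genes 15791, so the imprinted genes have more windows per gene. Among windows of this length it occurred in 23.3% of the 43 of the imprinted genes and in 11.6% of all 32851. Windows can overlap, as those of *Mest* that begin at 30737800 and 30737803 do, so a hexamer can count more than once. The share over windows of tested genes alone was not computed. The 9 genes were *Copg2*, *Grb10*, *Igf2*, *Meg3*, *Mest*, *Nnat*, *Plagl1*, *Snrpn* and *Zim1*. These counts describe letters in the reference, and neither methylation nor binding was measured.

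*Plagl1*, a zinc finger transcription factor of the paternal copy that is known to bind other imprinted loci including *Igf2*, was at 6774, 7802 and 4916 in Control and 15125, 8736 and 6997 in LS1. LS1 replicate 1 was far above the rest, and LS1 replicate 3 lay within the Control range. The difference was 0.61 (SE 0.28) with a 95% confidence interval of −0.04 to 1.26, and it was 0.29 without LS1 replicate 1 and 0.85 without LS1 replicate 3. *Grb10*, an adaptor that restrains insulin and IGF receptor signalling, was at 21508, 23296 and 17008 in Control and 32389.9, 24469 and 22268 in LS1, a difference of 0.35 (SE 0.17) with an unadjusted p of 0.0662. *Igf2r*, the maternally expressed receptor that carries *Igf2* protein to lysosomes, was at 12022, 11976 and 9951 in Control and 14734, 12759.5 and 11419 in LS1. Its difference was 0.19 (SE 0.14), with the interval −0.12 to 0.51. *Airn*, the paternal noncoding RNA that runs antisense to *Igf2r* and silences it in cis, was at 662, 702 and 701 in Control and 946, 662 and 681 in LS1, a difference of 0.13 (SE 0.19). Neither gene of this pair was past an unadjusted p of 0.05.

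In the *Kcnq1ot1* domain the differences had both signs. *Cdkn1c*, the cyclin-dependent kinase inhibitor p57 that is expressed as chondrocytes leave the cell cycle, was at 14457, 16087 and 12954 in Control and 20581, 14942 and 13572 in LS1. Only LS1 replicate 1 was above all Control libraries, and the difference was 0.16 (SE 0.17), with the interval −0.21 to 0.52. *Kcnq1ot1*, the paternal noncoding RNA that silences the domain in cis and lies antisense within *Kcnq1*, was at 1675, 1811 and 1436 in Control and 1695, 1311 and 1151 in LS1. It had the lowest difference of the 33, −0.26 (SE 0.18), with the interval −0.66 to 0.15. *Ascl2*, a basic helix-loop-helix factor, was near the floor of the rule with a mean of 33.9 normalized counts. *Phlda2*, which restrains placental growth, lay just outside it with a mean of 19.6.

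Among the paternally expressed genes of the *Snrpn* domain, *Ndn* (necdin, a MAGE family protein) had the clearest difference. It was at 2922, 2576 and 2245 in Control and 4001, 4091 and 3289.8 in LS1, with all LS1 libraries higher. The difference was 0.56 (SE 0.15), with an unadjusted p of 0.00375 and an adjusted p of 0.227 in limma and 0.0581 in DESeq2. *Magel2*, also of the MAGE family and next to *Ndn*, was at 468, 538 and 474 in Control and 481, 702 and 466 in LS1, a difference of 0.13 (SE 0.22). *Peg12* had a difference of 0.16 (SE 0.21). *Snrpn*, a core protein of the spliceosomal particles in neurons, was at 212, 266 and 332 in Control and 370.4, 287 and 477 in LS1, a difference of 0.48 (SE 0.26). *Snurf*, encoded by the same transcript as *Snrpn*, was listed at 0 in all 6 libraries and is not among the 33. The table also counts *Gm38393* over the same stretch, so reads of this locus could be split between entries.

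The remaining clusters contributed few or single genes. *Impact*, an inhibitor of the amino acid sensing kinase GCN2, was at 2154, 2083 and 1446 in Control and 2899.6, 2928 and 2184 in LS1, with all LS1 libraries above all Control libraries and a difference of 0.50 (SE 0.19, unadjusted p 0.0225 in limma). *Slc38a4*, an amino acid transporter, was at 3482, 2960.0 and 2849 in Control and 4501, 3337 and 4196 in LS1, a difference of 0.37 (SE 0.15, unadjusted p 0.0362 in limma) with LS1 replicate 2 inside the Control range. At the *Peg10*-*Sgce* cluster the divergent pair *Peg10* (retrotransposon-derived) and *Sgce* (epsilon-sarcoglycan), whose starts are 99 bases apart, had differences of 0.23 (SE 0.26) and 0.22 (SE 0.18). *Peg10* ranged from 901 to 2079.7 within LS1, wider than its whole Control range. *Asb4*, a subunit of a ubiquitin ligase, had a difference of 0.30 (SE 0.22). *Zrsr1*, a splicing factor related to U2AF, was with *Kcnq1ot1* the other gene lower in LS1, at 1510.5, 1420.1 and 1685 in Control and 1445, 1393 and 1281 in LS1, a difference of −0.16 (SE 0.15). *Peg13* (noncoding, inside *Trappc9*), *Inpp5f* (an inositol phosphatase) and *Gnas* (the stimulatory G protein subunit and related transcripts) had differences of 0.15 (SE 0.15), 0.15 (SE 0.15) and 0.06 (SE 0.21). *Nnat* and *Rasgrf1* were low and variable, with intervals of −0.70 to 1.14 and −0.86 to 1.45. *Rasgrf1*, with a mean of 32.9, was the gene nearest to the floor of 20, and *Nap1l5*, with a mean of 11.2, was left out by it.

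**Figure D2:**
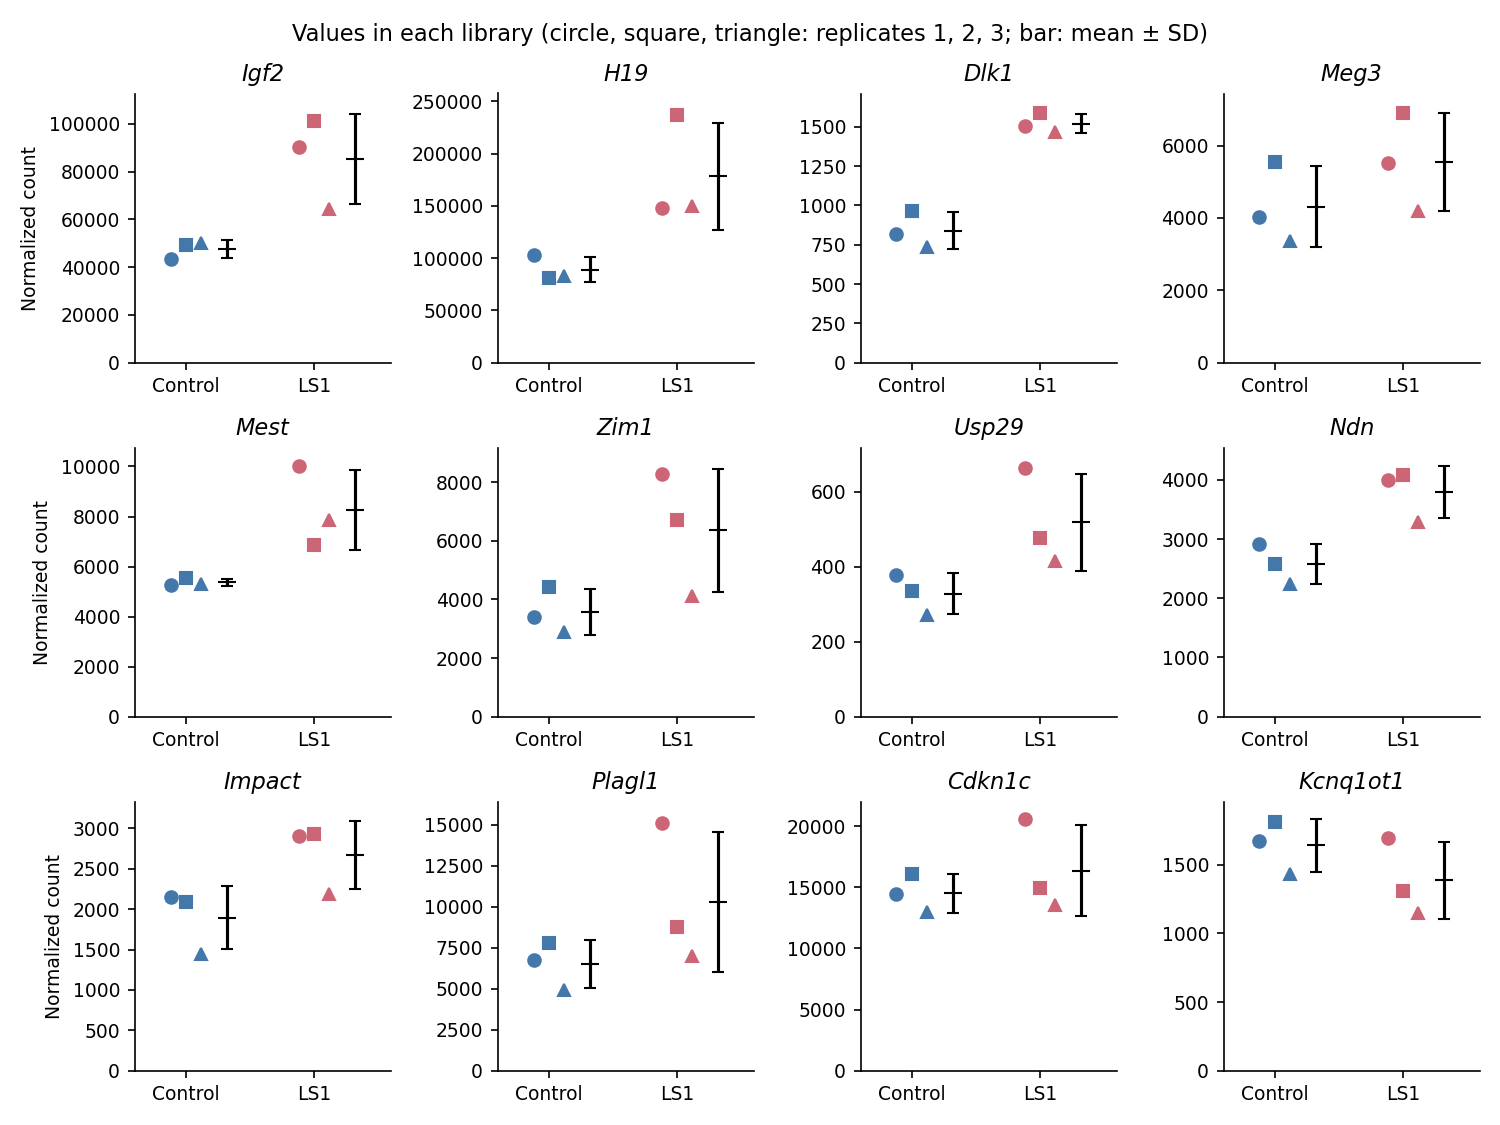
Each panel is a gene, with the normalized count on the vertical axis from 0, Control and LS1 on the horizontal axis, a symbol per library (circle, square and triangle for replicates 1, 2 and 3) and the mean ± SD of 3 libraries beside it. The groups are separate for *Igf2*, *H19*, *Dlk1*, *Mest*, *Usp29*, *Ndn* and *Impact* and overlap for *Meg3*, *Zim1*, *Plagl1*, *Cdkn1c* and *Kcnq1ot1*.

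Genes of both parental origins were mostly higher in LS1. The 20 paternally expressed genes had a median difference of 0.33, with 18 higher in LS1 and 7 past an unadjusted p of 0.05. The 10 maternally expressed genes had a median of 0.36, with 10 higher and 3 past that level. Every gene past it was higher in LS1. Of all genes tested, 50.7% were higher in LS1, 12.9% were past that level in either direction, and 7.08% were past it and higher. The difference between the alleles was not tested.

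Of the 7 clusters that hold both maternally and paternally expressed genes, 5 had 1 pair compared within each library, which removes any scaling of the library; no ratio was computed for the *Peg3* domain or the *Peg10*-*Sgce* cluster. The ratio of *H19* to *Igf2* was 2.36, 1.64 and 1.66 in Control and 1.64, 2.34 and 2.32 in LS1, and the groups overlapped (difference in log2 ratio 0.16, two-sided exact permutation p = 0.9, n = 3 each). The ratio of *Meg3* to *Dlk1* was 4.92, 5.75 and 4.55 in Control and 3.66, 4.35 and 2.86 in LS1. All LS1 values were lower, a log2 difference of −0.50. The ratio of *Cdkn1c* to *Kcnq1ot1* was 8.63, 8.88 and 9.02 in Control and 12.1, 11.4 and 11.8 in LS1. All LS1 values were higher, a log2 difference of 0.41, with an SD of 0.03 in Control and 0.05 in LS1, while each gene alone overlapped between the groups. For both of these pairs the exact permutation p was 0.1, the smallest that 3 against 3 libraries allow, and 0.25 after adjustment over the 5 pairs. The ratio of *Copg2* to *Mest* differed by −0.41 on the log2 scale, with overlap (exact permutation p = 0.2, n = 3 each). That of *Igf2r* to *Airn* differed by 0.07 (exact permutation p = 0.7, n = 3 each). *Kcnq1ot1* lies antisense within *Kcnq1*, and *Airn* is antisense to *Igf2r*. Since the use of strand in counting was not stated, their counts may include reads of the other strand. The share of other gene pairs whose ratios separate the groups was not computed.

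**Figure D3:**
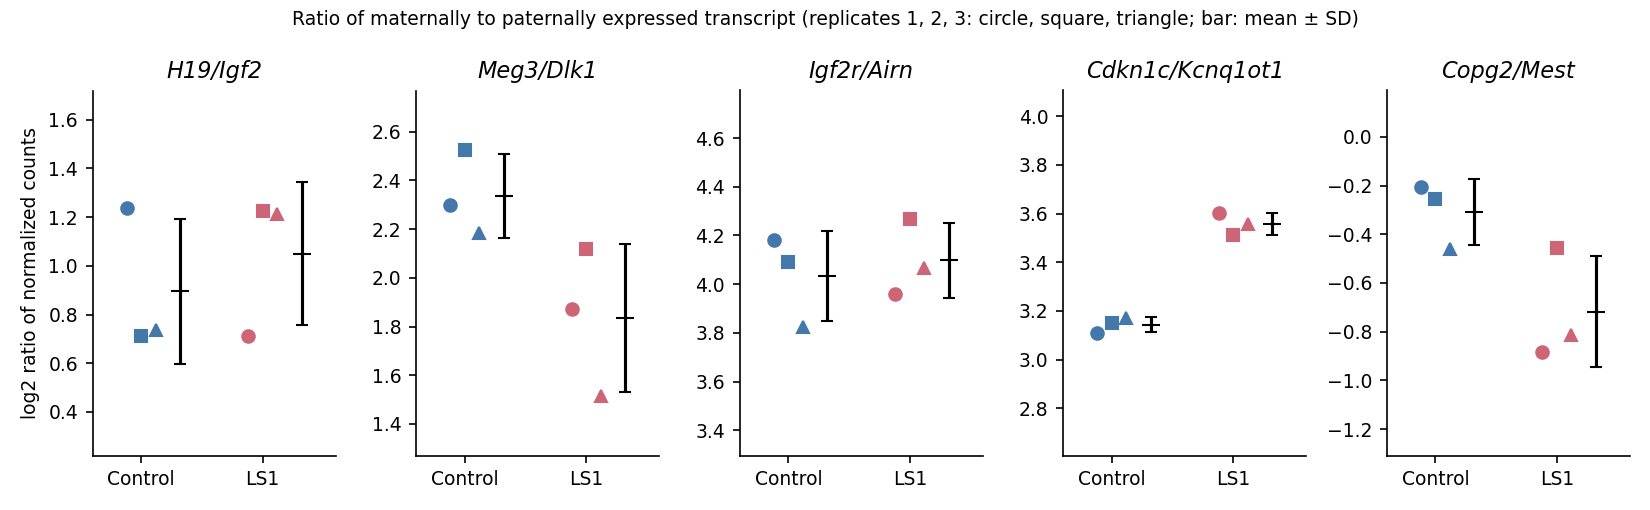
The vertical axis is the log2 ratio of the normalized counts of the named genes within a library, over a span of equal height in each panel, with a symbol per library and the mean ± SD of 3 libraries. The groups are separate for *Meg3*/*Dlk1*, lower in LS1, and for *Cdkn1c*/*Kcnq1ot1*, higher in LS1.

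The LS1 libraries differed in how far the imprinted genes stood above Control. Relative to the Control mean, the median over the 33 genes was 0.51, 0.33 and 0.13 in LS1 replicates 1, 2 and 3, and lay between −0.14 and 0.07 in the Control libraries. In LS1 replicates 1 and 2, 23 of the 33 genes each were above the highest Control library, where 34.5% and 30.1% of all tested genes were. In LS1 replicate 3, 13 were, where 30.3% of all tested genes were. LS1 replicate 3 had the lowest LS1 value in 23 of the 33 genes. Without it the median difference was 0.48. Among Control libraries, replicate 3 was the lowest in 17 genes.

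Other lists also differed between the groups or in single libraries. The chondrocyte list (20 genes) had a median difference of 0.44, with 18 higher in LS1 and medians of 0.45, 0.53 and 0.38 in LS1 replicates 1, 2 and 3. Its summed level was 2982690 to 3400630 normalized counts in Control and 3921440 to 4412370 in LS1. The skeletal muscle list (11 tested of 12) had a median of −0.82 with 0 higher, and a summed level of 10524 to 26471 in Control and 4896 to 14637 in LS1. Erythroid genes (13) had a median of −0.55 and B cell genes (13) of −0.48, whereas osteoblast (12) and osteoclast (10) lists were at 0.0011 and 0.03. Macrophage genes (11 tested of 12) had a median of 0.43, articular and resting zone genes (8) of 0.46, fibroblast and adipose genes (11) of 0.29, neutrophil genes (12) of 0.13 and endothelial genes (8) of 0.08. The 21 interferon-stimulated genes, with a median of 1.55, were at 1.76 and 2.90 in LS1 replicates 1 and 2 and at 0.03 in replicate 3, the library in which the imprinted genes were also nearest to Control. The part of these lists in the differences of the imprinted genes was not tested. Within the libraries with high *Xist* (2 Control, 1 LS1), 28 of the 33 genes were higher in LS1, with a median of 0.32. Within those that express *Ddx3y* (1 Control, 2 LS1) 28 were, with a median of 0.38, and 25 were higher in both. Each comparison rests on 1 mouse in a group, and the share of all genes higher within it was not computed. The single Control mouse with *Ddx3y*, replicate 3, was the lowest Control library in 17 of the 33 genes. The single LS1 mouse with high *Xist*, replicate 2, was the highest LS1 library in 11. These counts do not test the part of sex.

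**Figure D4:**
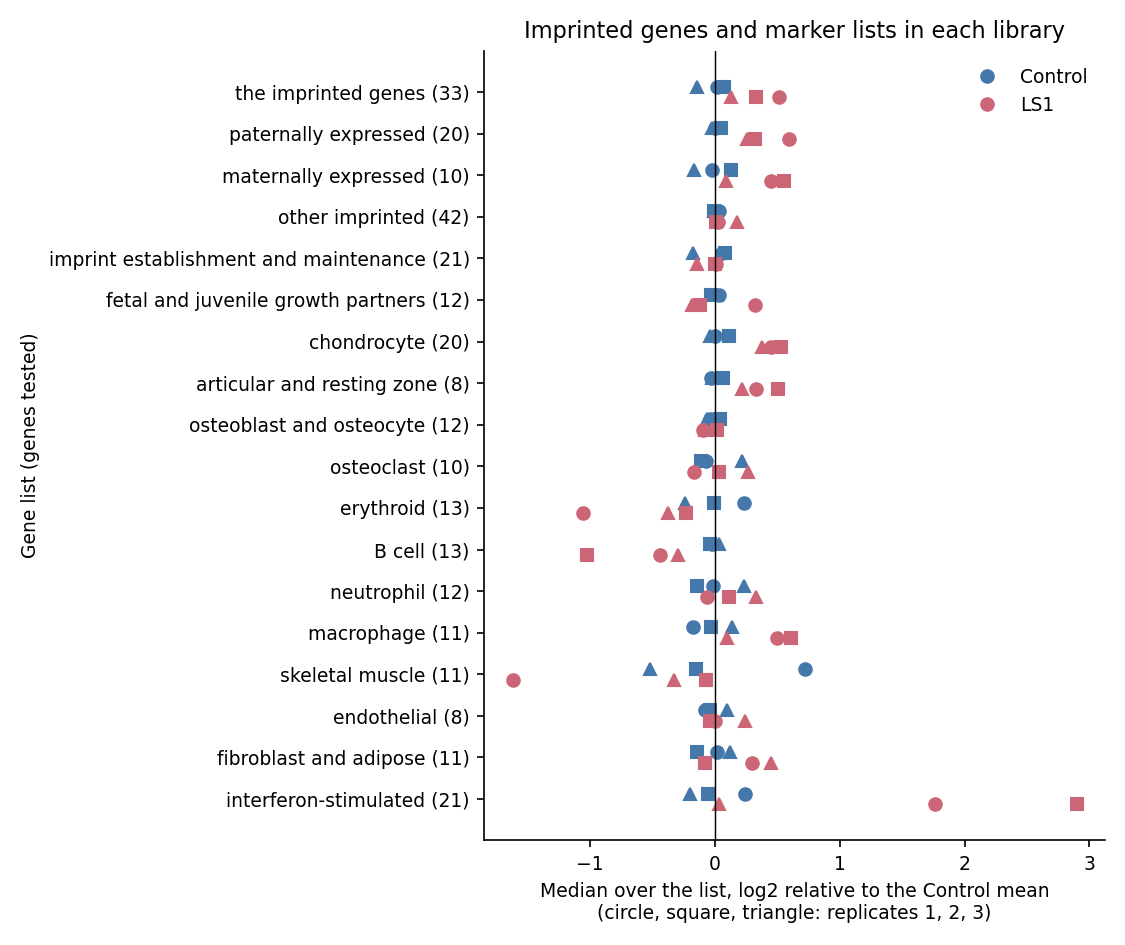
The horizontal axis is the median over each list of the log2 value relative to the Control mean, with a symbol per library (circle, square and triangle for replicates 1, 2 and 3) and a row per list. The imprinted genes lie above 0 in all LS1 libraries (0.51, 0.33 and 0.13), as the chondrocyte list does, while the interferon-stimulated list is near 0 in LS1 replicate 3.

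Imprinted genes outside the 33 were divided in direction. Of 50 of them 42 were tested, with 23 higher in LS1, a median of 0.07, and 8 past an unadjusted p of 0.05, 5 higher and 3 lower. Among these were *Ampd3*, which deaminates AMP, at 5935, 6205 and 5102 in Control and 3771, 4664 and 3759.9 in LS1 (difference −0.50, SE 0.14), *Casd1* next to *Sgce* (0.45, SE 0.16), *Cdh15*, the muscle cadherin (−0.62, SE 0.24), *Phactr2* near *Plagl1* (0.43, SE 0.17) and *Tnfrsf23* (0.43, SE 0.17). The neighbours that are on neither list of imprinted genes had a median difference near 0 as a pooled set, but clusters differed. Of 170 tested genes within 500 kb, 83 were higher, and the median was −0.0044. Near *Dlk1*-*Meg3* the median was 0.98 (2 of 3 genes higher). It was 0.58 near the *Snrpn* domain (6 of 7) and 0.20 near *Plagl1* (7 of 8). Near *Igf2*-*H19* it was −0.30 (4 of 13) and near *Grb10* −0.21 (1 of 6). The set includes transcripts that overlap imprinted genes, among them *Gm38393* at *Snrpn* (0.58) and *Nespas* at *Gnas* (−0.14). It also includes *Snhg14* (0.55) near the *Snrpn* domain. Being on neither list does not show that a neighbour is not imprinted, so these medians need not describe unimprinted flanking genes. Of the 170, 10 were higher and 5 lower past an unadjusted p of 0.05, together 8.82%, below the 12.9% of all genes. By smallest p these were *Stx11*, a syntaxin (0.85, SE 0.19), and *Utrn*, utrophin (0.48, SE 0.13), both near *Plagl1*, *Samhd1*, an interferon-inducible dNTP hydrolase near *Nnat* (0.90, SE 0.25), *Nelfcd* near *Gnas* (−0.49, SE 0.15), and *Edn3*, endothelin 3, also near *Gnas* (1.12, SE 0.34). *Igf2os*, antisense to *Igf2*, was at 81.7, 159.6 and 161 in Control and 292, 274 and 197 in LS1, a difference of 0.96 (SE 0.32), and since the use of strand in counting was not stated, its reads may not be separable from those of *Igf2*.

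Genes that set or protect imprints had a median difference near 0. Of 24 listed 21 were tested, with a median of −0.0064 and 0 higher past an unadjusted p of 0.05. There were 3 lower past that level, *Dnmt1*, the maintenance DNA methyltransferase, at 19862, 20499 and 17450.3 in Control and 12486, 16130.0 and 13679.7 in LS1 (difference −0.46, SE 0.14), its partner *Uhrf1* (−0.35, SE 0.15) and *Setdb1*, a histone H3 lysine methyltransferase (−0.33, SE 0.13), and for each of them the groups did not overlap. These 3 are 14.3% of the 21 genes, near the 12.9% of all genes past that level in either direction, and 8.94% of all genes had every LS1 library below every Control library. The next by p were *Mbd3* (−0.29, SE 0.16) and *Zfp57* (0.31, SE 0.27), which were not past that level. *Dnmt1* and *Uhrf1* are also known as genes of dividing cells. Of 13 growth partners of the imprinted genes 12 were tested, with a median of 0.06. *Hmga1*, a chromatin protein of growing tissue, was lower (−0.80, SE 0.28) and *Igf2bp2*, an RNA-binding protein of the *Igf2* transcript, higher (0.41, SE 0.15), both past an unadjusted p of 0.05. *Lin28a* (0.38, SE 0.19), *Trim71* (−0.90, SE 0.48) and *Igf1* (0.22, SE 0.20) were not, and 16.7% of the 12 were past that level, against 12.9% of all genes. None of these genes had an adjusted p under 0.05 in limma.

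**Figure D5:**
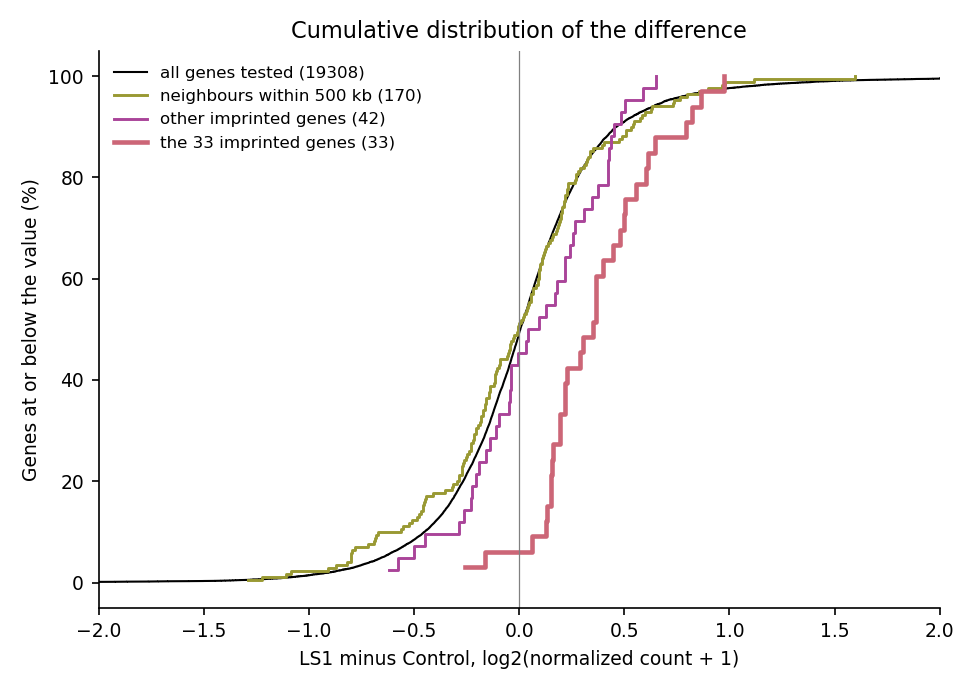
The vertical axis is the percent of genes at or below the difference between LS1 and Control on log2(normalized count + 1) given on the horizontal axis, as a step line for each set of genes, drawn from −2 to 2. The line of the 33 imprinted genes lies to the right (median 0.35), that of 42 other imprinted genes near the line of all genes (median 0.07), and that of 170 neighbours on it (median −0.0044).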

How the data were processed

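RNA of the proximal tibial epiphysis of 3 Control and 3 LS1 mice was compared. The imprinted genes and gene lists were chosen with earlier results of these data known. The authors mapped paired reads to GRCm38 with HISAT2 2.0.2 and counted them per Ensembl gene with featureCounts 1.4.6. The deposited signal is the count divided by 1 size factor per library. Division by the value of 1 read gave whole reads (within 0.001) for 100% of values, although in Control replicate 1 this value (1.01) was too near 1 to tell reads from rounding, so count tests were alternatives. Genes with a mean of at least 20 reads (19308) were tested in R 4.3.3 by limma 3.58.1, with trend and robust moderation, on log2(value + 1), which understates changes of low genes, and adjusted by Benjamini-Hochberg over all. The 33 imprinted genes all passed that filter. Alternatives were edgeR 4.0.16, DESeq2 1.42.0, voom, other scaling, filters and pseudocounts, a replicate block, left-out libraries and a *Ddx3y* covariate. Ratios were tested by exact permutation (scipy 1.17.1). The scripts were tested on simulated data. Symbols and positions came from GENCODE M21 (99.1% of identifiers matched), later than the annotation of the authors, and sequences from RefSeq tables. The text names every one of the 33 genes, of other lists up to 5 genes with the smallest p, of marker lists genes of high mean, and overlapping or neighbouring genes chosen after values were seen. Libraries of a group differed far beyond read sampling (chi-square per degree of freedom 38.6 to 145).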

Additional observations from a re-analysis of the deposited data

How the results depend on the processing

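The shift of the imprinted genes kept its direction under all 19 alternatives run, 3 of which were chosen after the data were seen, with a median difference of 0.26 to 0.48 over the genes tested. The count of called genes depended on the test. With all libraries DESeq2 called 5 of the 33 (459 of all genes), where limma called 0 (14). Without LS1 replicate 3 DESeq2 called 8 (992), adding *Usp29*, *Ndn* and *Plagl1*, where limma called 4 (324). Leaving out 1 library at a time, limma called 0 to 4 of the 33, 6 to 15 were past an unadjusted p of 0.05, and 5 to 324 of all genes were called. The 15 and the 324 came without LS1 replicate 3, where 16.7% of all genes were past the unadjusted level (12.9% with all libraries), and 6 of the 33 without Control replicate 3 (9.01% of all genes) and without LS1 replicate 1 (12.2%). In the last of these *Kcnq1ot1* was among the 6, lower in LS1. Over all genes 46 were called without LS1 replicate 1, 9 without Control replicate 1 and 5 without Control replicate 2. A filter at a mean of 100 reads left 30 of the 33 and called 9 of all genes, edgeR without Control replicate 1 called 6, and a *Ddx3y* covariate called 8, each with 0 of the 33. The cause was not tested. The letter in the sample titles did not pair the libraries (correlations of deviations 0.054, 0.021 and 0.224), and with a replicate block by that letter 0 of the 33 were called, 14 were past an unadjusted p of 0.05, as were 17.5% of all genes, and 12 of all genes were called. Under all alternatives together, 10 of 624 differences of single genes changed sign, in 7 genes, none past an unadjusted p of 0.05. With 3 mice per group the smallest exact p is 0.1, and genes with few reads, such as *Ascl2*, *Nnat* and *Rasgrf1*, carry wide intervals.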
